A study of Mus musculus with 8 samples.

Results

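The comparison is between a pair of mouse embryonic stem (ES) cell lines edited at Tbxt, the gene for the T-box transcription factor Brachyury. It takes in 4 of the 8 RNA sequencing libraries of the series, 2 from TbxtinsASAY/insASAY cells and 2 from TbxtΔexon6/Δexon6 cells, chosen by their genotype labels. TbxtinsASAY/insASAY cells, the insertion line, carry the human AluSx1 and AluY elements in introns 5 and 6 of both mouse Tbxt alleles, an inverted pair that flanks exon 6 as in the human gene. TbxtΔexon6/Δexon6 cells, the deletion line, lack exon 6 on both alleles, and their 2 libraries come from different clones, called clone 1 and clone 2 here after replicates 1 and 2 of the labels. The other 4 libraries, 2 of wild-type (WT) and 2 of TbxtΔexon6/+ cells, entered the shared estimate of the spread. All lines derive from MK6 ES cells of the C57BL/6J strain and were collected at day 1 of in vitro differentiation. Both lines were edited with CRISPR-Cas9 and drug selected. The insertion line was made on feeder cells with puromycin, followed by Cre-mediated removal of the cassette and ganciclovir counter-selection, and the deletion line without feeders with blasticidin, so allele and line history cannot be told apart. How many clones stand behind the 2 insertion libraries is not given in the sources used here. The p-values rest on the spread between replicate libraries, shared over all 8, and not on a spread between independently made lines. This shared value also covers the deletion clones, which differed more than the other pairs of replicates.

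Brachyury drives mesoderm formation in the primitive streak and the outgrowth of the tail, and ES cells that begin to differentiate switch it on. Inverted Alu repeats in neighbouring introns can pair in the pre-mRNA and loop out the exon between them, so that a share of the transcripts lacks the exon. A homozygous deletion removes the exon from every transcript. The question put to the counts was which classes of genes still separate these related lines, and whether both deletion clones show each difference.

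Exon 6, which the deletion removes and the Alu pair flanks, is shown with the last 20 bases of exon 5 and the first 20 of exon 7 in lower case and exon 6 in capitals. It spans chr17:8438616-8438789 on the plus strand of GRCm38, in the coding part of the 8-exon transcript of Tbxt in GENCODE M21, and its 174 bases are 58 codons with 0 bases over. The second line gives the join of exons 5 and 7 that is left without it.
Tbxt exons 5, 6 and 7: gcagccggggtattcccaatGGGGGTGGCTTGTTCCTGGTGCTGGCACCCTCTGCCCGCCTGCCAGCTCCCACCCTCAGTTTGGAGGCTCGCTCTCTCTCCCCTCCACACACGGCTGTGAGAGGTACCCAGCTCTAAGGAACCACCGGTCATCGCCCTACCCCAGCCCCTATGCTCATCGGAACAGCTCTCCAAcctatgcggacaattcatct
Tbxt exons 5 and 7: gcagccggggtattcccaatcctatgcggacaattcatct

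Reads on genes ran from 24925247 to 27230429 in the 4 libraries. Tbxt was low at this stage, with 26 and 22 reads in the deletion clones and 30 and 29 in the insertion libraries, and the fitted difference was 0.22 ± 0.30 on the log2 scale (SE, edgeR, Benjamini-Hochberg adjusted p = 0.67). All log2 fold changes below are of the insertion over the deletion line and carry the standard error of the fit. The gene counts hold all Tbxt transcripts together and do not show how many include exon 6. Of 3 streak genes named by the study, Mixl1 had 8 and 26 reads in the deletion clones and 16 and 29 in the insertion libraries, while Wnt3a, with at most 9 reads in any library, and Msgn1, with at most 2, did not pass the filter on low counts. The ES cell identity markers were present in all 8 libraries (Pou5f1 at 156 to 295 CPM, reads scaled to a common library total by edgeR's TMM method). Of the 10, 0 were called between the lines by edgeR and 0 by DESeq2, and 5 had an unadjusted p under 0.05 in edgeR. Against clone 2 alone 3 of them, Pou5f1 and Nanog among these, were called higher in the insertion line, and 0 against clone 1 alone. Among markers of other cells, 1 of 12 tested feeder fibroblast markers (Dcn, lower), 0 of 14 of extraembryonic endoderm (0 by DESeq2, 3 at an unadjusted p under 0.05) and 3 of 9 of trophoblast (Gata3 lower, Ascl2 and Cdx2 higher) were called. Over all tested genes 5.16% were called. Members of these lists ran from silent to well expressed. Ttr, Prl3d1 and Tpbpa were at 0 reads in every library and Fap was at no more than 1. Sparc was at 370 to 517 CPM and Lamb1 at 246 to 464 CPM (endoderm), Fbn1 at 21.4 to 36.7 CPM (feeder) and Esx1 at 14.4 to 24.2 CPM (trophoblast). Whether other cells were present was not tested.

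A gene was called where edgeR's quasi-likelihood test gave a Benjamini-Hochberg adjusted p under 0.05 with a log2 fold change over 0.5 in either direction. Of 17049 tested genes, 880 (5.16%) differed, 475 higher (2.79%) and 405 lower (2.38%) in the insertion line. The higher genes rested on fewer reads than the lower ones. The median of the mean level over the 4 libraries was 3.18 CPM for the higher genes, of which 173 were under 2 CPM, against 20.1 CPM for the lower genes, of which 37 were under 2 CPM. DESeq2 called 203 genes higher and 379 lower, so that the split turned from 54.0% to 34.9% higher, and the same turn was seen when the 4 libraries were fitted alone (252 higher and 320 lower, 44.1%) or with a variance for each genotype in limma voom (257 and 355, 42.0%). The lower genes therefore kept most of their number under these fits, with 355, 319 and 352 of the 405 called again, against 203, 249 and 240 of the 475 higher genes.

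The pair of deletion clones was less alike than any other pair of replicates. Among genes of at least 2 CPM over all libraries, 700 differed by over 0.5 on the log2 scale between the clones, against 114 between the insertion libraries, 117 between the WT and 124 between the TbxtΔexon6/+ libraries. The median difference in size was 0.128 between the clones and 0.061 between the insertion libraries. Clone 2 was the nearer of the clones to the insertion line, with a median difference in size of 0.125 from its mean, against 0.168 for clone 1. Clone 1 was the nearer to WT, at 0.158 against 0.244. Of 689 genes of at least 2 CPM in the 4 libraries by which the clones differed by over 0.5, clone 2 lay nearer to the insertion line for 457 and clone 1 nearer to WT for 633.

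The position of each clone was then read for the called genes. These genes were called on the same libraries, so the counts in this paragraph are largely set by the calls themselves and are a description. The 2 insertion libraries were above both clones for 475 of 475 higher genes and below both for 404 of 405 lower genes, where 28.1% of all tested genes had groups that did not overlap in each of these directions (56.2% in either). The exception was the pseudogene Gm4654, with 65 reads in clone 2, 4 in clone 1, and 2 and 6 in the insertion libraries. Measured from each clone in turn, 345 of the 475 higher and 284 of the 405 lower genes were past 0.5 on the log2 scale from both clones. A further 91 higher and 87 lower genes were past it from clone 1 only, and 39 and 34 from clone 2 only. The median difference of the higher genes was 0.91 from clone 1 and 0.78 from clone 2, and that of the lower genes -0.76 and -0.67.

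**Figure D1:**
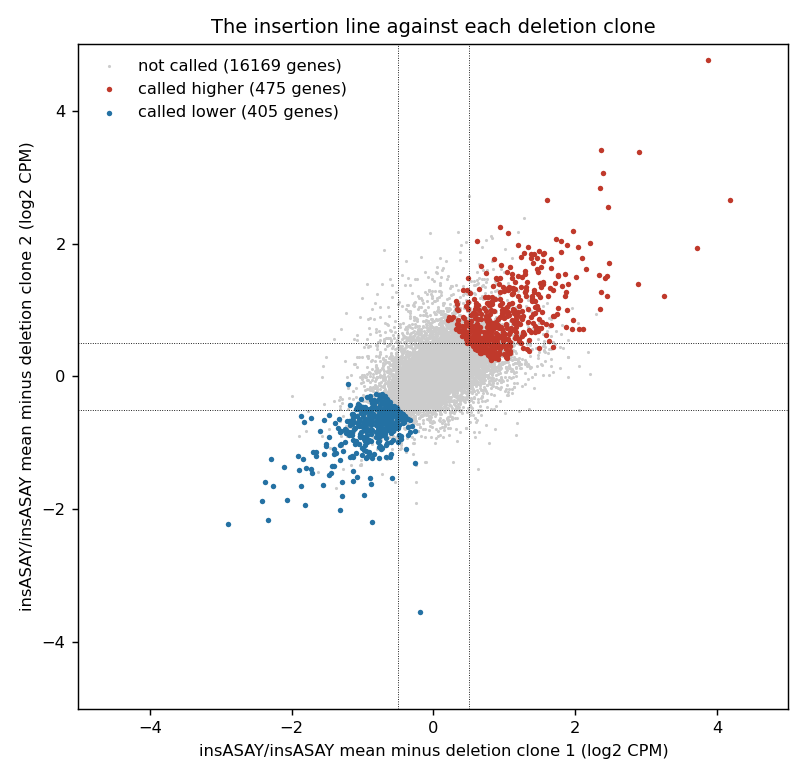
Log2 CPM of the insertion line (mean of 2 libraries) minus deletion clone 1 (x axis) and minus deletion clone 2 (y axis), 1 point for each of 17049 tested genes, red for genes called higher, blue for genes called lower, grey for the rest, with dotted lines at 0.5 on both axes. Of the called genes 629 lie past 0.5 in the same direction on both axes, and the single blue point at -3.56 on the y axis and -0.18 on the x axis is Gm4654.

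With 1 clone left out, and the lone clone assumed to vary like the other groups, 1529 of 17585 genes (8.69%) were called against clone 1, 884 higher (5.03%) and 645 lower (3.67%), and 854 of 17674 (4.83%) against clone 2, 450 higher (2.55%) and 404 lower (2.29%). Of the 880 genes, 733 were called again against clone 1 alone, 582 against clone 2 alone, 466 against each and 31 against neither. Leaving out an insertion library left 358 calls (113 higher and 245 lower) without replicate 1 and 669 (271 and 398) without replicate 2. These fits reuse 3 of the 4 libraries that made the calls. Counts of list members in these fits, where given below, stand beside these numbers for all tested genes. Across all tested genes, 4 were called in opposite directions against the 2 clones. Gbp2, an interferon-induced GTPase, was higher against clone 1 and lower against clone 2, while Slco4a1, an organic anion transporter, and the germline genes Brdt and Tuba3a were lower against clone 1 and higher against clone 2.

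The largest fold change among the 880 genes was that of the imprinted gene Cdkn1c. Imprinted genes are expressed from 1 parental allele, chosen by DNA methylation that was laid down in the germ line, and several of them control growth. Cdkn1c, an inhibitor of cyclin-dependent kinases that restrains growth, was at 5.91 and 3.15 CPM in clones 1 and 2 and at 87.6 and 88.4 CPM in the insertion libraries, where WT had 77.1 and 76.9 and TbxtΔexon6/+ 72.7 and 69.6 CPM. Both clones held little of its RNA, and the insertion line lay slightly above WT and TbxtΔexon6/+. The log2 fold change between the lines was 4.30 ± 0.14 (edgeR, adjusted p = 3.7e-09).

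Its neighbours on chromosome 7 went with it in part. In the interval from Ascl2 (chr7:142966829-142969264 in GRCm38) to Osbpl5 (chr7:143688762-143756985), a set drawn up after values had been seen, 5 of 13 tested genes were called, all higher in the insertion line. Over all tested genes 2.79% were higher. Slc22a18, a transporter, was at 0.972 and 0.587 CPM in the clones and 5.17 and 5.71 CPM in the insertion libraries, with a log2 fold change of 2.81 ± 0.22. Phlda2, a restrainer of placental growth, was at 17.5 and 14.3 against 50.3 and 53.9 CPM (log2 fold change 1.71 ± 0.09), and Ascl2, a transcription factor of the trophoblast, at 1.13 and 1.21 against 2.92 and 2.89 CPM (log2 fold change 1.30 ± 0.22). For each of these genes both clones were below the lowest insertion library, which the calls largely set, and below the lowest WT library. Kcnq1, a potassium channel gene, had 2 and 1 reads in the clones and 29 and 31 in the insertion libraries, a ratio of 18.98 with an exact 95% interval of 6.19 to 94.6 that covers counting error only.

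The antisense RNA Kcnq1ot1, transcribed from the paternal allele inside Kcnq1 and known to silence the genes around it, was at 13.6 and 10.8 CPM in the clones and 9.11 and 9.00 CPM in the insertion libraries. Its log2 fold change of -0.43 ± 0.15 missed the threshold (edgeR, adjusted p = 0.064). It was called lower against clone 1 alone and not against clone 2 alone, and it was lower in the insertion line than in WT, with a log2 fold change of -0.54 ± 0.14 (edgeR, adjusted p = 0.0079). Among further neighbours, Nap1l4, a histone chaperone, was at 159 and 169 against 170.0 and 174 CPM and Cd81, a tetraspanin, at 265 and 227 against 217 and 230.1 CPM, and neither was called. The libraries are directional, so reads of Kcnq1 and its antisense partner were counted apart.

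Over all tested genes 2.79% were higher and 2.38% lower. Over the whole list of maternally expressed imprinted genes, 6 of 14 tested members were higher and 4 lower. The 6 were the 5 genes of this interval and Igf2r. Of the 21 tested paternally expressed genes 2 were higher and 10 lower, with a median log2 fold change of -0.65 against 0.01 over all tested genes. Igf2, the growth factor gene that lies beside H19 on chromosome 7, was at 28.9 and 29.1 CPM in the clones and 68.2 and 73.0 CPM in the insertion libraries (log2 fold change 1.28 ± 0.08), whereas the H19 RNA was at 119 and 193 against 103 and 79.0 CPM (log2 fold change -0.78 ± 0.17). The insertion libraries exceeded both clones for Igf2 and were below both for H19, which the calls largely set. For H19 the clones differed by more than clone 1 and the nearer insertion library did. WT was at 36.6 and 41.5 CPM for H19, below both lines. H19 was not called against clone 1 alone.

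The genes lower in the insertion line came from several imprinted domains. Rian and Meg3, maternally expressed RNAs of the Dlk1 domain on chromosome 12, were at 347 and 393 and at 43.8 and 46.5 CPM in the clones. In the insertion libraries they were at 218 and 208 and at 28.7 and 22.7 CPM, and in WT at 146 and 147 and at 19.3 and 19.13 CPM. Peg3, a zinc finger gene, went from 246 and 242 to 160.2 and 151 CPM (log2 fold change -0.65 ± 0.05) and Sgce, a sarcoglycan, from 57.7 and 58.7 to 33.2 and 32.6 CPM (log2 fold change -0.82 ± 0.06). For these 4 genes the clones were close to each other and above WT, and the insertion line lay near WT or between. Impact, a regulator of translation, showed the same order, at 366 and 405 CPM in the clones, 245 and 233 CPM in the insertion libraries and 202 and 189 CPM in WT.

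The medians of the imprinted lists were close for the 2 clones. The median log2 difference of the maternally expressed genes was 0.43 from clone 1 and 0.35 from clone 2. That of the paternally expressed genes was -0.58 and -0.62. By DESeq2 6 maternally expressed genes were higher and 4 lower, and 1 and 9 of the paternally expressed. Over all 27566 genes tested by DESeq2 203 were higher and 379 lower. Fewer paternally expressed genes were lower when either insertion library was left out, as over all tested genes. Of the 22 called imprinted genes 19 were past 0.5 from both clones, a count taken on the values that called them. Against WT, 13 of the 21 paternally expressed genes were called higher in the deletion line, where 6.12% of all tested genes were, and 6 in the insertion line, where 11.5% were. Of 17 tested DNA methylation enzymes and readers 0 were called by edgeR and 0 by DESeq2, and 5 had an unadjusted p under 0.05 in edgeR. DNA methylation was not measured.

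**Figure D2:**
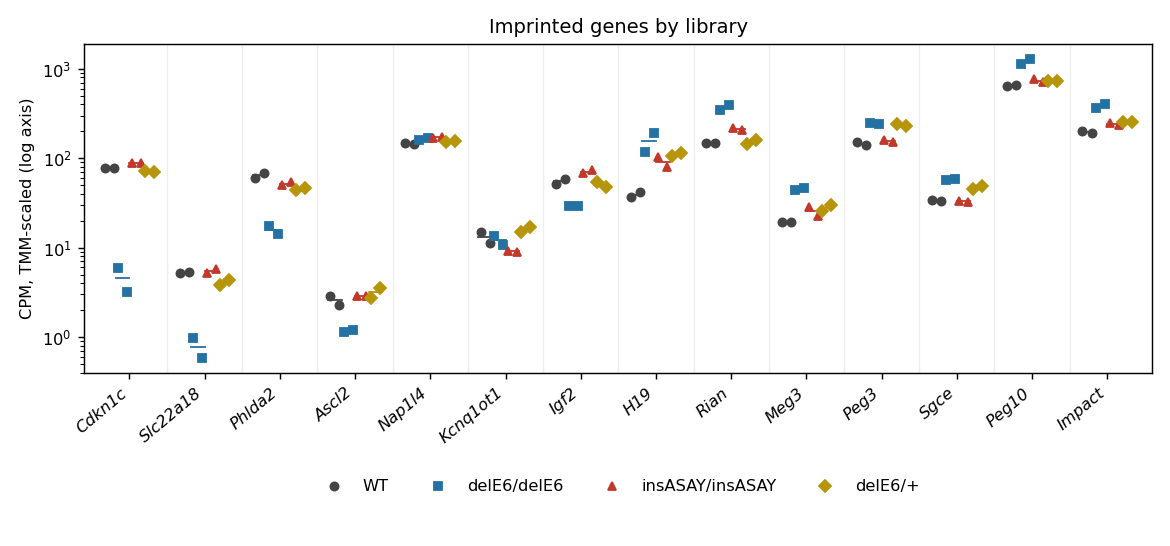
CPM on a log axis of 14 imprinted or neighbouring genes, 1 marker for each library of WT, delE6/delE6 (the deletion clones, clone 1 left), insASAY/insASAY and delE6/+, with a line at the mean of each pair. Cdkn1c, Slc22a18, Phlda2 and Ascl2 are low in both deletion clones only, while Rian, Peg3, Sgce, Peg10 and Impact are highest there or close to TbxtΔexon6/+.

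Many genes of the immediate early response were lower in the insertion line. They are switched on within minutes by growth factors, serum or stress, and many encode transcription factors of the AP-1 and Egr families. Of 22 tested members 14 were lower in the insertion line and 0 higher, beside 2.38% lower over all tested genes, and all 22 fold changes were below 0 (median -0.75). Fosl2, an AP-1 subunit, was at 125 and 89.0 CPM in the clones and 28.9 and 39.0 CPM in the insertion libraries (log2 fold change -1.65 ± 0.14). Atf3, a stress-induced factor of the same class, was at 131 and 106 against 45.2 and 54.4 CPM (log2 fold change -1.25 ± 0.10), and Dusp1, a phosphatase that switches off MAP kinases, at 155 and 144 against 76.6 and 88.7 CPM (log2 fold change -0.85 ± 0.07). In each of the 3 the groups did not overlap, which the calls largely set and which 28.1% of all tested genes showed in this direction. Not every member passed the test. Fos was at 7.37 and 5.35 CPM in the clones and 6.23 and 5.38 CPM in the insertion libraries (adjusted p = 0.78 by edgeR), and Egr1 at 44.8 and 49.2 against 38.7 and 34.8 CPM (log2 fold change -0.35 ± 0.08, under the size asked for a call).

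The median log2 difference of these genes was -0.79 from clone 1 and -0.53 from clone 2. By DESeq2 12 of them were lower, beside 379 of 27566 tested genes. Fewer were lower against clone 2 alone than against clone 1 alone, as over all tested genes. Leaving out either insertion library also lowered the count, again as over all tested genes. Against WT 12 were lower in the insertion line, beside 9.85% of all tested genes, and 1 in the deletion line, beside 6.59%, comparisons that share these libraries with the one between the lines.

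Genes of the actin cytoskeleton were lower as well. Of 22 tested genes of actin, actin-binding, keratin and annexin proteins 11 were lower and 0 higher, beside 2.38% lower over all tested genes, and all 22 fold changes were below 0 (median -0.47). Tagln, which encodes the actin cross-linker transgelin, was at 345 and 348 CPM in clones 1 and 2 and 112 and 142 CPM in the insertion libraries, a log2 fold change of -1.44 ± 0.08 (edgeR, adjusted p = 1.0e-06). The clones differed from each other by less than the insertion libraries did. The calponins Cnn1 and Cnn2, which bind actin filaments, were at 25.6 and 21.9 and 195 and 187 CPM in the clones against 9.22 and 10.5 and 94.6 and 109 CPM. Acta2, smooth muscle actin, was at 12.3 and 16.8 against 5.58 and 6.07 CPM (log2 fold change -1.33 ± 0.14), and Tpm1, a tropomyosin, at 575 and 648 against 336 and 373 CPM (log2 fold change -0.79 ± 0.07). The insertion libraries lay below both clones in every case, which the calls largely set and which held for 28.1% of all tested genes. Against clone 2 alone 14 members were lower, and against clone 1 alone 8, beside 2.29% and 3.67% of all tested genes.

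Targets of YAP, the transcriptional co-activator that responds to cell shape and contact through TEAD factors, were lower in 7 of 13 tested cases and higher in 0, beside 2.38% lower over all tested genes (median -0.65). Ccn1, a secreted matricellular protein, was at 889 and 532 CPM in clones 1 and 2 and 179 and 235 CPM in the insertion libraries (log2 fold change -1.78 ± 0.18). Its relative Ccn2 was at 134 and 62.9 against 55.3 and 61.1 CPM (log2 fold change -0.75 ± 0.23). For both genes clone 1 was high and clone 2 between it and the insertion line, and for Ccn2 clone 2 exceeded the higher insertion library by little, so that Ccn2 was not called against clone 2 alone. Amotl2, an inhibitor of YAP that YAP itself induces, was at 344 and 252 against 143 and 161 CPM (log2 fold change -0.97 ± 0.11). Ccn1 and Ccn2 stand in the immediate early list too. The median log2 difference of the YAP list was -0.74 from clone 1 and -0.48 from clone 2. By DESeq2 6 targets were lower, beside 379 of 27566 tested genes. Fewer targets were lower against clone 2 alone than against clone 1 alone, as over all tested genes. Leaving out insertion replicate 1 also lowered the count, again as over all tested genes.

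Srf, the factor that drives actin and immediate early genes through CArG boxes, was itself lower, at 144 and 108 CPM in the clones and 73.3 and 77.3 CPM in the insertion libraries (log2 fold change -0.75 ± 0.10). Promoters of RefSeq (GRCm38.p6, 250 bases before to 50 after each start) were available for 294 of the lower and 308 of the higher genes. A CArG box, the 10-letter motif of SRF, which reads the same on both strands, stood in 14 of the 294 (4.76%) and 5 of the 308 (1.62%), beside 1.55% of 11560 tested genes with a promoter. The TEAD motif GGAATG, searched on both strands, stood in 20.7% of the lower and 16.9% of the higher genes, beside 14.5% of all. It stood in 8 of 11 YAP targets with a promoter. YAP acts through TEAD factors, so that share is not independent of the choice of list. The AP-1 motif TGACTCA stood in 6.80% of the lower and 5.19% of the higher genes, beside 4.40% of all. It stood in 0 of 17 immediate early genes with a promoter. The cyclic AMP response element TGACGTCA stood in 18 of the lower and 1 of the higher genes, beside 3.50% of all. The T-box motif TCACACCT stood in 3 of the lower and 5 of the higher genes (1.02% and 1.62%), beside 1.01%. A gene with several starts counts once if any of its promoters holds the motif, and a match is a description and no evidence of binding.

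The stretches that hold these motifs upstream of a RefSeq start of 5 of the lower genes are shown 5′ to 3′ on the strand of the gene, with the motif in capitals. They lie at chr17:46556195-46556264, minus strand (Srf, with 2 boxes), chr10:79988524-79988573, plus strand (Cnn2), chr2:156775283-156775332, plus strand (Myl9, myosin regulatory light chain), chr3:145650063-145650108, minus strand (Ccn1) and chr9:102717719-102717764, plus strand (Amotl2). For Amotl2 this start lies inside the gene as GENCODE M21 gives it (chr9:102716672-102733418). The last 2 show the TEAD motif as its reverse complement.
Srf: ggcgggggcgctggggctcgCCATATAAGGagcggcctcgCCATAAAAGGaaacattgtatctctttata
Cnn2: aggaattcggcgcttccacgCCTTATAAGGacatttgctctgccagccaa
Myl9: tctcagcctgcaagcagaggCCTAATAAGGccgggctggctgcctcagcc
Ccn1: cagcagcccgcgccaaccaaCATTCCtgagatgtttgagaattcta
Amotl2: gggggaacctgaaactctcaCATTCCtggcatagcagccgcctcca

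**Figure D3:**
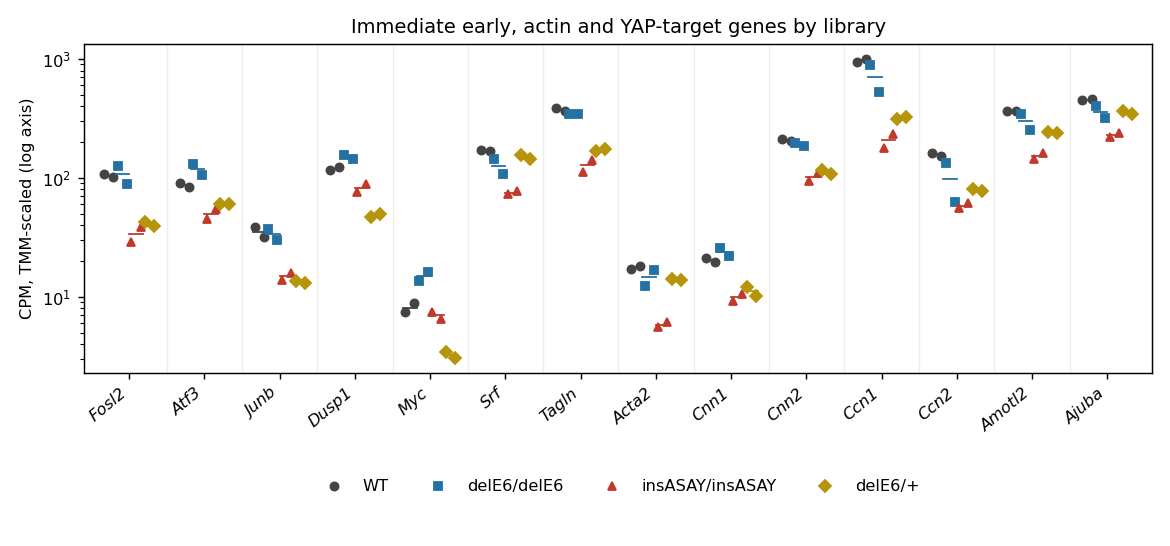
CPM on a log axis of 14 immediate early, actin and YAP-target genes, 1 marker for each library and a line at the mean of each pair (delE6/delE6, the deletion clones, with clone 1 left). In all 14 genes both insASAY/insASAY libraries lie below both deletion clones, as they do for 28.1% of all tested genes. The delE6/+ libraries lie near the insertion line for some genes (Cnn2, Junb) and near WT for others (Srf, Acta2).

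TbxtΔexon6/+ cells, which keep 1 intact allele, lay below both WT and the deletion line for Tagln and Ccn1. Tagln was at 170.0 and 176 CPM there, against 389.7 and 364 CPM in WT, and Ccn1 at 315 and 328 against 942 and 1002 CPM. Of the called members of the actin list, the TbxtΔexon6/+ mean was nearer to the insertion line than to the deletion line on the log2 scale for 9 of 11, of the immediate early list for 10 of 14 and of the YAP list for 4 of 7. Over all lower genes this held for 203 of 405 and over all higher genes for 136 of 475.

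Some signalling genes were lower as well, beside 2.38% lower and 2.79% higher over all tested genes. In the LIF and Stat3 list, the pathway that sustains mouse ES cells, 6 of 14 tested members were lower and 1 higher. Junb, among the lower members, stands in the immediate early list too. Lif, the cytokine, was at 22.1 and 20.02 CPM in the clones and 11.5 and 11.6 CPM in the insertion libraries (log2 fold change -0.87 ± 0.09), and Bcl3, an NF-κB cofactor, at 11.9 and 12.3 against 5.36 and 5.16 CPM (log2 fold change -1.21 ± 0.12). The Stat3 target Gbx2, a homeobox gene, was the member that rose, from 5.10 and 6.01 to 11.7 and 11.5 CPM (log2 fold change 1.06 ± 0.12). The median log2 difference of the LIF and Stat3 list was -0.42 from clone 1 and -0.36 from clone 2. By DESeq2 6 members were lower, beside 379 of 27566 tested genes. Fewer members were lower against clone 2 alone than against clone 1 alone, as over all tested genes. Leaving out insertion replicate 1 also lowered the count, again as over all tested genes. In the FGF-ERK list 4 of 17 were lower and 0 higher, among them Dusp5, a phosphatase of ERK, at 69.9 and 76.8 against 40.2 and 45.0 CPM (log2 fold change -0.79 ± 0.07). Dusp5 in the clones stood above WT, which had 52.4 and 51.1 CPM. The median log2 difference of the FGF-ERK list was -0.29 from clone 1 and -0.35 from clone 2, and 3 members were lower by DESeq2. More members were lower against clone 2 alone than against clone 1 alone, where over all tested genes fewer were. Leaving out insertion replicate 1 lowered the count, as over all tested genes.

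Stress genes were lower in part, and their counts between the lines stand beside 2.38% lower over all tested genes. Of 22 tested genes of the ATF4 response, which adapts amino acid supply, 9 were lower and 0 higher, and all fold changes were below 0 (median -0.46). The count was 12 against clone 1 alone, where 3.67% of all tested genes were lower, and 5 against clone 2 alone, where 2.29% were, and 5 without insertion replicate 1. Trib3, a pseudokinase induced by ATF4, was at 194 and 159.7 CPM in clones 1 and 2 and 100.5 and 115 CPM in the insertion libraries (log2 fold change -0.71 ± 0.08), and Vldlr, a lipoprotein receptor, at 59.9 and 62.1 against 34.0 and 37.4 CPM (log2 fold change -0.77 ± 0.06). Of 25 tested p53 targets 6 were lower, 6 against clone 1 alone and 2 against clone 2 alone. In the glycolysis and hypoxia list 5 of 34 were lower and 0 higher. The list as a whole did not shift, with a median of -0.03, 16 members above 0 and 18 below. The lower genes took in Adm, shown with the largest falls, and Pfkfb3, a regulator of glycolysis, at 48.3 and 54.5 against 23.3 and 26.8 CPM (log2 fold change -1.04 ± 0.08).

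**Figure D4:**
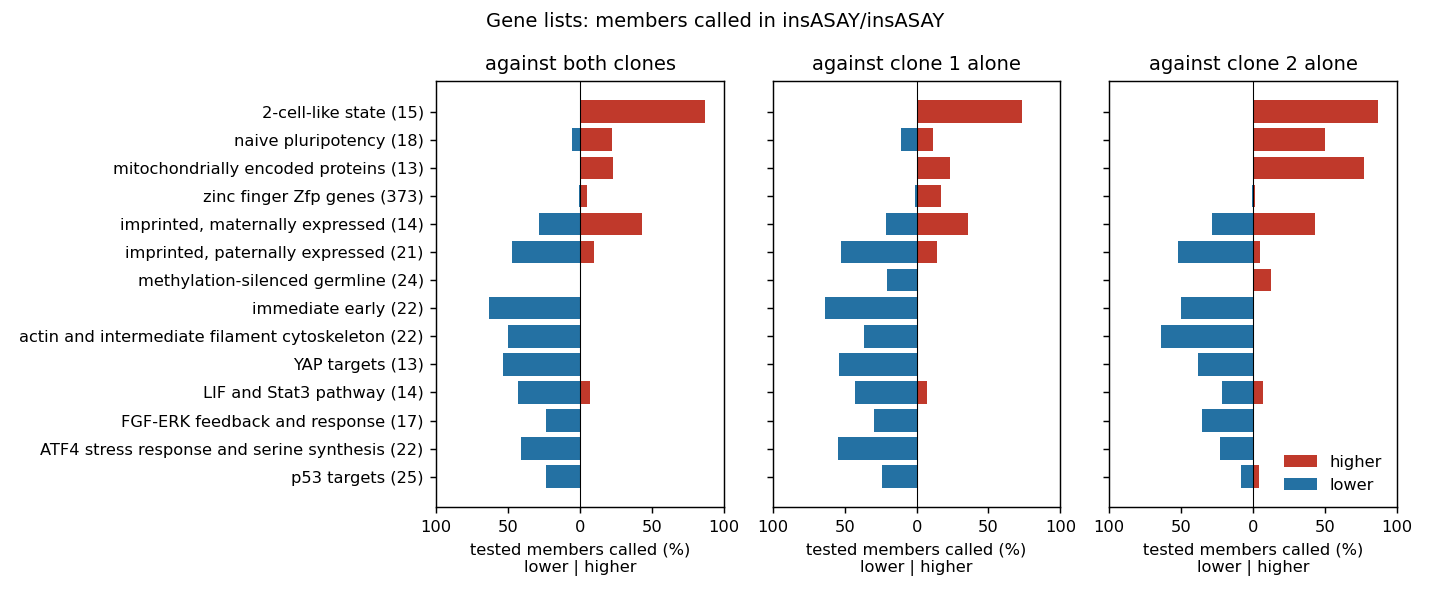
Percent of the tested members of 14 gene lists (number tested in brackets) called higher (red, right) or lower (blue, left) in the insertion line against both deletion clones, against clone 1 alone and against clone 2 alone. The 2-cell-like, imprinted, immediate early, actin and YAP lists keep their main direction in all 3 panels. The mitochondrial and Zfp lists keep theirs but change in number with the clone, and the naive and germline lists change in their split of higher and lower calls.

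The TREAT test, which asks for a log2 fold change beyond 0.5 within the test itself, called 42 genes higher (0.246%) and 92 lower (0.54%). It kept 5 of the 13 higher genes of the 2-cell-like list, 6 of 14 lower immediate early genes, 6 of 11 of the actin list, 3 of 7 YAP targets, 3 of 6 of the LIF and Stat3 list, 2 of 4 of the FGF-ERK list, 1 of 9 of the ATF4 list and 0 of 6 p53 targets. Of the maternally expressed imprinted genes 4 were higher and 1 lower, and of the paternally expressed 1 and 4. No naive, mitochondrially encoded, Zfp or primitive streak gene was called by it, where the edgeR test without it called 5, 3, 20 and 3. Of the Tbxt targets 2 were higher and 13 lower.

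Most genes of the 2-cell-like state were higher in the insertion line. This is a transient condition of rare ES cells in which genes of the early cleavage embryo are expressed. All 15 tested members of the list had fold changes above 0 (median 1.45) and 13 were called higher, beside 2.79% higher over all tested genes. Zscan4e, of the Zscan4 family that guards telomeres in these cells, was at 0.729 and 0.843 CPM in the clones and 4.19 and 3.15 CPM in the insertion libraries (log2 fold change 2.21 ± 0.25). Zscan4d was at 2.35 and 2.09 against 6.81 and 6.37 CPM (log2 fold change 1.57 ± 0.18), and Tmem92, a membrane protein gene of this state, at 0.850 and 0.917 against 3.86 and 3.62 CPM (log2 fold change 2.07 ± 0.22). The clones were alike. The groups did not overlap, which the calls largely set and which 28.1% of all tested genes showed in this direction. Fewer cells in this state and less RNA in each cannot be told apart in bulk libraries.

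Against clone 1 alone 11 members were higher and against clone 2 alone 13. These genes were low, 8 of the 15 under a mean of 2 CPM, and the call depended on the fit. By DESeq2 6 were higher, beside 203 of 27566 tested genes. With a variance for each genotype 6 were higher, beside 257 of 17049. Fewer members, and fewer of all tested genes, were higher when either insertion library was left out. Members of the Zscan4 and Usp17l families are near copies, and uniquely mapped reads may be split or lost between them, so single members are uncertain. In WT, Zscan4d stood at 3.86 and 4.39 CPM, between the lines, and TbxtΔexon6/+ was as low as the clones, at 2.27 and 1.51 CPM. Of the list 11 members were called lower than WT in the deletion line (6.59% of all tested genes) and 4 higher than WT in the insertion line (11.5%).

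The 12 largest rises of genes of at least 2 CPM also took in 3 genes of the Zscan4 and PRAME families. Zscan4a, annotated as an unprocessed pseudogene, was at 0.526 and 0.954 against 3.46 and 3.11 CPM, Zscan4-ps2 at 1.21 and 0.770 against 3.32 and 3.07 CPM and Pramef25, of the PRAME family, at 0.810 and 1.14 against 3.02 and 3.04 CPM. Gm5662 was at 1.01 and 0.843 against 3.75 and 3.66 CPM and Gm5039 at 1.09 and 1.28 against 4.15 and 3.59 CPM. Arg2, the mitochondrial arginase, was at 1.30 and 0.843 against 3.46 and 3.07 CPM (log2 fold change 1.62 ± 0.23). Neurog3, a proneural transcription factor, rose from 1.17 and 3.45 to 9.44 and 8.97 CPM (log2 fold change 1.97 ± 0.29). Neurog3 separated the clones too, with clone 2 at about the middle between clone 1 and the insertion line on the log2 scale.

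Among the 12 largest falls, 6 were genes of the Xlr family, X-linked genes first found in lymphocytes that form a cluster on chromosome X. Over the whole family, gathered after values had been seen, 9 of 10 tested genes were lower and 0 higher, beside 2.38% lower over all. Xlr3a (chrX:73086293-73097095) was at 37.2 and 25.5 CPM in clones 1 and 2 and 7.29 and 6.48 CPM in the insertion libraries (log2 fold change -2.18 ± 0.16). Xlr4a was at 8.38 and 7.44 against 1.71 and 1.50 CPM (log2 fold change -2.30 ± 0.18) and Xlr5b at 6.40 and 3.96 against 1.06 and 0.585 CPM (log2 fold change -2.64 ± 0.29). For these 3 genes WT lay between the lines, and clone 1 was the higher clone. The family holds near copies whose reads may be split between members. It was lower in 9 cases against clone 1 alone and 8 against clone 2 alone, and in 8 when either insertion library was left out.

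Among the other large falls, Cxcl10, an interferon-induced chemokine, was at 8.34 and 4.80 CPM in the clones and 1.24 and 1.94 CPM in the insertion libraries (log2 fold change -2.04 ± 0.28). Cldn1, a tight junction protein, was at 4.09 and 4.47 against 0.911 and 1.35 CPM (log2 fold change -1.92 ± 0.21), and Adm, the vasodilator adrenomedullin, at 6.32 and 3.04 against 1.13 and 1.35 CPM (log2 fold change -1.90 ± 0.31). The insertion line was also below WT for all 3, with WT at 5.49 and 4.503, 3.03 and 2.94 and 7.44 and 7.55 CPM. Tgfb2, a ligand of the TGF-β family, was at 4.78 and 7.81 against 1.38 and 2.52 CPM (log2 fold change -1.69 ± 0.27), here with clone 2 as the higher clone. The processed pseudogene Gm12033 had 4.05 and 10.3 CPM in clones 1 and 2 and 2.08 and 2.31 CPM in the insertion libraries. Its log2 difference was -0.87 from clone 1 and -2.20 from clone 2.

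For other classes the answer depended on the clone. Naive pluripotency genes, which mark the ground state of ES cells, were higher in 4 and lower in 1 of 18 tested cases against both clones. Over all tested genes 2.79% were higher and 2.38% lower. The median log2 difference of the list was 0.22 from clone 1 and 0.62 from clone 2. Against clone 2 alone members were called higher only, and against clone 1 alone calls went both ways. Fewer were higher without insertion replicate 1, as over all tested genes. Against WT 12 members were lower in the deletion line, beside 6.59% of all tested genes, and 11 in the insertion line, beside 9.85%. Nanog, a core pluripotency factor, was at 21.1 and 13.8 CPM in clones 1 and 2, 22.2 and 20.97 CPM in the insertion libraries and 38.7 and 32.9 CPM in WT, so that clone 1 matched the insertion line and clone 2 lay below it. Pecam1, a surface adhesion molecule of naive cells, was at 21.2 and 11.9 against 31.8 and 27.3 CPM (log2 fold change 0.85 ± 0.18), and Klf5, a naive-state factor, was lower in the insertion line, at 37.0 and 27.5 against 21.5 and 22.3 CPM (log2 fold change -0.55 ± 0.11). Klf5 was called against clone 1 alone and Pecam1 against clone 2 alone.

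The 13 protein genes of the mitochondrial genome were all above 0 in fold change (median 0.46), with 3 called higher, 3 against clone 1 alone and 10 against clone 2 alone. The call followed the insertion libraries too, with 2 higher without replicate 1 and 7 without replicate 2. Between the lines 2.79% of all tested genes were higher. mt-Nd1, a subunit of complex I, was at 2486 and 2115 CPM in the clones and 4288 and 3467 CPM in the insertion libraries (log2 fold change 0.75 ± 0.11). Reads on the mitochondrial chromosome were 2.21% of all in clone 1, 1.61% in clone 2, and 2.97% and 2.44% in the insertion libraries, and the part of this share in other results was not tested. Of 82 tested nuclear genes of oxidative phosphorylation and 77 mitochondrial ribosomal protein genes 0 were called by edgeR and 0 by DESeq2, and 15 and 14 had an unadjusted p under 0.05 in edgeR.

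Zinc finger genes of the Zfp family, many of them repressors of retroelements, differed in number between the clones. Of 373 tested, 18 were higher and 2 lower, beside 2.79% higher and 2.38% lower over all tested genes. Against clone 1 alone 63 were higher, beside 5.03% of all, and against clone 2 alone 5, beside 2.55%. The count was 8 by DESeq2, 3 without insertion replicate 1 and 9 without replicate 2. The median fold change was 0.14, at 0.21 from clone 1 and 0.07 from clone 2. Zfp936 was at 15.6 and 18.96 CPM in the clones against 30.2 and 25.8 CPM (log2 fold change 0.69 ± 0.11). Germline genes that DNA methylation silences went both ways, with 0 of 24 called against both clones by edgeR (0 by DESeq2, 3 at an unadjusted p under 0.05), 5 lower against clone 1 and 3 higher against clone 2. Tuba3a, a testis tubulin, was at 16.7 and 7.74 CPM in clones 1 and 2 and 11.1 and 12.4 CPM in the insertion libraries, and Brdt, a testis bromodomain protein, at 7.17 and 3.19 against 4.92 and 4.54 CPM. The insertion line lay between the clones for both genes.

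The genes by which the clones differed most, where the mean over the 4 libraries reached 2 CPM, are given as a description. Gm4654, under that level, differed by more. Higher in clone 2 were Neurog3 and Gm12033, shown above, Mat2a, which makes the methyl donor S-adenosylmethionine, at 19.96 and 47.4 CPM, the RNA-binding protein gene Rbmx at 3.08 and 7.33 CPM and Gm14569 at 4.17 and 9.72 CPM. The insertion libraries were at 69.7 and 59.6 CPM for Mat2a and 8.49 and 6.84 CPM for Rbmx. Lower in clone 2 were Tbx3, a T-box factor of the naive state, at 28.7 and 11.3 CPM, Slco4a1 at 5.30 and 2.09 CPM, Cyp2d22, a cytochrome P450, at 3.64 and 1.47 CPM, Mcf2 at 7.49 and 3.19 CPM, and Aass, of lysine breakdown, at 3.40 and 1.43 CPM. WT exceeded both clones for all 5, with Tbx3 at 63.2 and 57.4 CPM and Aass at 6.17 and 6.62 CPM, and the insertion line was at 16.3 and 14.7 and 2.08 and 1.79 CPM. The other 3 had 3.57 and 3.33 (Slco4a1), 2.33 and 2.45 (Cyp2d22) and 7.18 and 6.95 CPM (Mcf2) in the insertion libraries. Clone 2 was the nearer of the clones to the insertion line on the log2 scale for Tbx3 and Aass, and clone 1 for Mcf2, Cyp2d22 and Slco4a1.

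**Figure D5:**
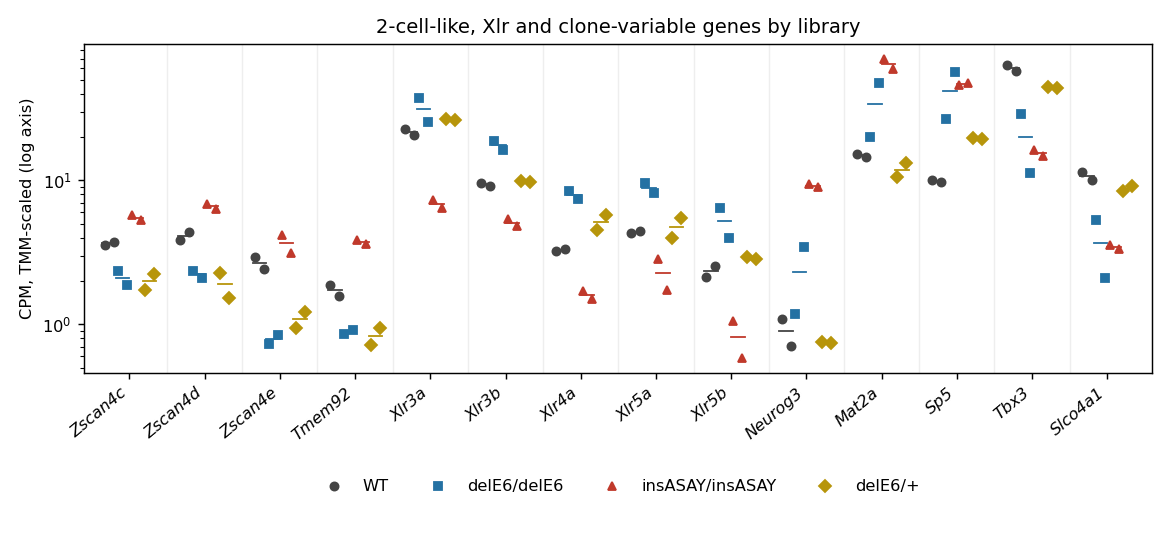
CPM on a log axis of 14 genes, 1 marker for each library and a line at the mean of each pair (delE6/delE6, the deletion clones, with clone 1 left). In the first 9 genes (2-cell-like and Xlr) the deletion and insertion libraries do not overlap, which their calls largely set and which 56.2% of all tested genes show. In the last 5 (Neurog3 to Slco4a1) the clones lie far apart.

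Some developmental genes rose. Of 15 tested primitive streak and mesendoderm genes 3 were higher and 0 lower, beside 2.79% higher over all tested genes, 1 by DESeq2 and 1 without insertion replicate 1. Cdx1, a homeobox gene of the posterior axis, was at 8.26 and 10.3 CPM in the clones and 14.7 and 15.2 CPM in the insertion libraries (log2 fold change 0.68 ± 0.11). In the Nodal list 2 of 13 were higher: Lefty1, an inhibitor of Nodal, at 19.6 and 30.7 against 54.8 and 45.3 CPM (log2 fold change 0.99 ± 0.15), and Fst, an inhibitor of activin, at 11.0 and 8.62 against 17.8 and 15.7 CPM (log2 fold change 0.77 ± 0.13). Id3, a BMP-induced inhibitor of differentiation, was at 2.02 and 3.19 against 5.10 and 4.94 CPM (log2 fold change 0.93 ± 0.22), while the BMP antagonist Nog was lower, at 2.43 and 2.35 against 0.692 and 1.10 CPM (log2 fold change -1.41 ± 0.28). The groups did not overlap for any of these 5 genes, which the calls largely set and which 56.2% of all tested genes showed in either direction. Of 13 tested T-box factors 0 were called by edgeR and 0 by DESeq2, 1 had an unadjusted p under 0.05 in edgeR, and 2 were lower against clone 1 alone.

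Of 429 Tbxt target genes listed by the study, 72 (16.8%) were called, beside 5.16% of all tested genes. Of these 20 were higher and 52 lower, and the median log2 fold change of the list was -0.01. The study kept in this list only bound genes that had changed in these libraries against WT, so its count is not independent of them. Against clone 1 alone 49 were higher and 70 lower, against clone 2 alone 19 and 37, and without insertion replicate 1 the numbers were 7 and 37. By DESeq2 13 were higher and 56 lower. Those with the smallest adjusted p were Pawr, a pro-apoptotic factor, at 199 and 199 CPM in the clones and 96.1 and 108 CPM in the insertion libraries (log2 fold change -0.96 ± 0.06), Irs2, an adaptor of the insulin receptor, at 116 and 103 against 57.2 and 60.1 CPM (log2 fold change -0.90 ± 0.06), and Klf7, a zinc finger factor, at 75.7 and 66.9 against 36.2 and 37.2 CPM (log2 fold change -0.96 ± 0.07). In these 3 genes the clones were close to WT and the insertion line was below. Of 115 tested tail-development genes 6 were higher and 11 lower (14.8% called, beside 5.16% of all tested genes). Among the lower was Col2a1, the cartilage collagen, at 21.8 and 20.02 against 9.91 and 10.5 CPM (log2 fold change -1.04 ± 0.09).

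Large constitutive classes held no calls. Of 85 cytosolic ribosomal protein genes and 38 proteasome subunits 0 were called by edgeR and 0 by DESeq2, and 8 and 9 had an unadjusted p under 0.05 in edgeR. Other lists held calls, given here with their percent called, beside 5.16% of all tested genes. Of 68 collagens, laminins and integrins 3 were higher and 4 lower (10.3%). Of 61 ephrins, semaphorins and other axon guidance genes 2 were higher and 4 lower (9.84%), and of 40 replication-dependent histones 1 and 1 (5%). Of 30 cholesterol and fatty acid synthesis genes 0 were higher and 3 lower (10%), and of 31 amino acid transporters 0 and 2 (6.45%). Of 41 cadherins and protocadherins 0 were higher and 1 lower (2.44%), and of 24 Hox genes 0 and 1 (4.17%). Of 18 Notch pathway genes 2 were higher and 1 lower (16.7%), and of 15 Wnt response genes 1 and 0 (6.67%). Of 13 Id and BMP feedback genes 1 was higher and 1 lower (15.4%), and of 14 retinoic acid genes 1 and 1 (14.3%). For 16 neural progenitor genes it was 1 and 1 (12.5%), and for 18 formative and primed pluripotency genes 1 and 0 (5.56%). Of 12 cyclins and inhibitors 1, Cdkn1c, was higher and 0 lower (8.33%). Chromosomes were alike in their medians, which ran from -0.04 to 0.04 for the autosomes and X. Chromosome 7 held 68 higher and 23 lower genes of 1374 tested (6.62% called), beside 6.82% called on chromosome 14 and 6.76% on chromosome 12. Chromosome X held 10 and 21 of 710 (4.37%), chromosome Y 0 and 2 of 10 (20%), and the mitochondrial chromosome 5 and 0 of 20 (25%).

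WT was set beside the lines to place each difference. Of the 475 higher genes, 195 were called higher than WT in the insertion line and not called in the deletion line, 115 were lower than WT in the deletion line only, 86 were called in neither, 57 were higher than WT in both, 13 were on opposite sides of WT and 9 were lower in both. Of the 405 lower genes, 217 were lower than WT in the insertion line only, 45 were higher than WT in the deletion line only, 82 were called in neither, 44 were lower in both, 9 were on opposite sides and 8 were higher in both. The 2 comparisons with WT share the WT libraries with each other and the mutant libraries with the comparison between the lines, so these counts are a description. In all tested genes 12.7% were called in the deletion line against WT and 21.3% in the insertion line.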

How the data were processed

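RNA of 4 genotypes, 2 libraries each, was sequenced after poly(A) selection with a directional protocol. The deposited files hold read counts per gene, which the authors made by aligning to the mouse genome with STAR 2.7.2a, and raw counts of the opposite-strand column were used as deposited. STAR counts uniquely mapped reads only, so near-identical genes can lose reads or share them. The authors tested with DESeq2 1.40.2. Their test results entered only through the list of Tbxt targets, which the study kept for a change in these libraries. Gene names and positions were taken from GENCODE M21 (GRCm38), where 48058 of 48440 identifiers were found, and promoters from RefSeq (GRCm38.p6).

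Genes passing filterByExpr (at least 10 reads as scaled to the libraries, 15 in total) were fitted in edgeR 4.0.16 (R 4.3.3) with TMM library sizes, 1 coefficient for each genotype and all 8 libraries, and the insertion line was contrasted with the deletion line by the quasi-likelihood test. Genes were called at a Benjamini-Hochberg adjusted p under 0.05 if the log2 fold change also exceeded 0.5 in either direction. Counts were also simulated (16759 genes) with the same spread in all libraries and log2 changes of 1 planted in 200 genes of at least 2 CPM. Of these 194 were called, with 5 false calls. In the data 700 genes differed by over 0.5 between the clones and 114 between the insertion libraries, and 173 higher genes were under 2 CPM. The simulated rates therefore cannot be carried over to this contrast. Alternatives were DESeq2 1.42.0, limma 3.58.1 voom, other filters and scalings, and leaving out single libraries. Figures were drawn with matplotlib 3.10.9. That the 2 deletion libraries are different clones is taken from the study's methods.

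The members, the 43 gene lists and the tests were chosen with earlier results of these data known. Genes were named if they were among the 12 largest rises or falls of at least 2 CPM with groups that did not overlap, among the 4 smallest adjusted p of a list's calls, or among the 5 of at least 2 CPM that differed most between the clones in each direction. Tbxt and the 3 streak genes were always named. Pou5f1, Nanog, Fos, Egr1, Srf, Acta2, Myl9, Ccn2, H19, Meg3, Igf2r, Kcnq1ot1, Nap1l4, Cd81, Brdt, Tuba3a, Gbp2 and Gm4654, with Peg10 and others in the plots, were chosen after their values were seen. Wnt3a and Msgn1 were too low to test.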

Additional observations from a re-analysis of the deposited data

How the results depend on the processing

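The 880 calls (475 higher, 405 lower) became 582 with DESeq2 (203 higher, 379 lower), 572 when only the 4 libraries compared were fitted (252 and 320) and 134 when the test itself asked for a log2 fold change over 0.5 by TREAT (42 and 92). With limma voom and a variance for each genotype, an alternative chosen after seeing the data, there were 612 (257 and 355). Leaving out 1 library gave 358 to 1529 calls, 113 to 884 higher and 245 to 645 lower, the lowest without insertion replicate 1 and the highest without deletion clone 2. Calls numbered 885 with DESeq2's size factors, 1108 of 27566 genes without the filter, 809 with at least 10 counts in every library, 883 unstranded and 857 with GC and length offsets. Without deletion clone 1, the log2 fold changes were 0.71 for Slco4a1, 0.55 for Brdt and 0.59 for Tuba3a, and without clone 2 they were -0.62, -0.60 and -0.51. Gbp2 was at 0.63 without clone 2 and -0.55 without clone 1. The cause of these shifts was not tested. The replicate numbers did not pair the libraries, with correlations of deviations from -0.01 to 0.05, and a fit with the replicate number as a block called 829 (440 and 389). Of 148 named genes that were called, 132 were called with DESeq2, 66 by TREAT, 146 with the replicate block, 106 without insertion replicate 1 and 126 without insertion replicate 2. With 2 libraries a group the depth limits calls of genes with few reads, 173 of the 475 higher genes being under 2 CPM.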
